A study of Mus musculus with 10 samples.

Results

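The GIMAP family (GTPases of immunity-associated proteins) was described here through the 8 members Gimap1, Gimap3, Gimap4, Gimap5, Gimap6, Gimap7, Gimap8 and Gimap9, which were found by gene name among the 52550 genes of the deposited table. The members were chosen by measured values, namely the rise of Gimap9 in pre-cDC2 libraries over pre-cDC1 libraries, so every value of pre-cDC2 against pre-cDC1 below is a description with no test. RNA was sequenced from spleen precursors of conventional dendritic cells (cDCs) of C57BL/6 mice. Pre-cDC1, called DN in the sample titles, are precursors committed to the cDC1 lineage, and pre-cDC2, called Ly6C there, to the cDC2 lineage. The groups were KO pre-cDC2 (2 libraries), WT pre-cDC2 (2 libraries), KO pre-cDC1 (3 libraries) and WT pre-cDC1 (3 libraries). KO stands for CD11c-cre Adam10fl/fl mice, in which a loxP-flanked part of the gene of the sheddase ADAM10 is removed by Cre made under the CD11c promoter. That promoter is active in dendritic cells and in some other leukocytes, and how completely the precursors had lost the flanked part is not stated in the labels. WT stands for wild type, with no other allele or treatment named. The sources do not say whether the libraries of a group came from separate animals, so the p-values below measure only the spread between these libraries.

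GIMAP proteins are small guanine nucleotide-binding proteins of vertebrates that share a conserved GTPase domain and sit, in many cases, on internal membranes such as the endoplasmic reticulum, the lysosome or the mitochondrion. In mice and rats they are best known from lymphocytes, in which they are abundant and in which several members are needed for cell survival. Since T cells and NK cells are among the cells rich in GIMAP RNA, T cell RNA was set beside the family in each library.

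The members lay in 1 cluster of 124 kb on chromosome 6 (GRCm38, GENCODE mouse release 21). In the order of their starts, the cluster held Gimap8 (chr6:48647234-48660875, plus strand), Gimap9 (chr6:48676129-48679114, plus), Gimap4 (chr6:48684549-48692060, plus) and Gimap6 (chr6:48701582-48708225, minus). Gimap7 (chr6:48718621-48724636, plus), Gimap1 (chr6:48739054-48743795, plus), Gimap5 (chr6:48746197-48754210, plus) and Gimap3 (chr6:48764464-48770851, minus) followed. All are annotated as protein coding. The family trait is the GTP-binding P-loop, so 30 coding bases over it are shown for each member, read 5′ to 3′ from the annotated transcripts on the coding strand. Capitals mark the codons for the glycine, lysine and serine of the P-loop.
Gimap8, first GTPase domain: ctagggaaacagggcgcaGGCAAAAGTgcc
Gimap8, middle GTPase domain: atggggaagcgtggtgttGGGAAAAGTgca
Gimap8, last GTPase domain: ttgggaaggagtggggctGGAAAGAGTgca
Gimap9: gtagggaagactggaaatGGGAAGAGTgct
Gimap4: cttggaaaaactggagcaGGAAAGAGTtca
Gimap6: gtggggaaaacaggaagcGGGAAAAGTgca
Gimap7: gtagggaaaacaggaagtGGAAAGAGCgcc
Gimap1: gtgggcaggactgggaccGGCAAGAGTgcc
Gimap5: gtgggcaaatctggctgcGGTAAAAGCgcc
Gimap3: gtgggcaaatctggctgcGGTAAAAGCgcc
Gimap8 carried 3 such stretches in 688 codons, and the other members carried 1 each in 291 to 328 codons. The stretch was the same base for base in Gimap3 and Gimap5. Over the whole coding sequence these neighbours were 89.8% identical in 901 aligned bases, and the next closest pair was Gimap7 and Gimap9 with 65.1% identity in 876 aligned bases. Of the distinct 50-base stretches of Gimap3 transcripts, 7.52% also occurred in Gimap5, so some reads of these members could have been counted to either. Gimap8, Gimap9 and Gimap4 shared no 50-base stretch with any other annotated gene.

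The promoters of Gimap9, Gimap4 and Gimap3 are shown because the results below turn on these members. Each runs from 250 bases before to 50 bases after the annotated start, in the direction of transcription (RefSeq, GRCm38.p6). Capitals mark the RUNX motif, found as ACCACA on the strand shown. Gimap9 lies at chr6:48675885-48676184 (plus), Gimap4 at chr6:48684328-48684627 (plus) and Gimap3 at chr6:48770802-48771101 (minus).
Gimap9 promoter: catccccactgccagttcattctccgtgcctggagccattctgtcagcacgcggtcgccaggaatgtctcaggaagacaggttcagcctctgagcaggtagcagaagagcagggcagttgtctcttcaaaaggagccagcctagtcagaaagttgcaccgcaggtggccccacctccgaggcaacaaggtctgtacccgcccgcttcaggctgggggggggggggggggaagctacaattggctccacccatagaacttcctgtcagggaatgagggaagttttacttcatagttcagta
Gimap4 promoter: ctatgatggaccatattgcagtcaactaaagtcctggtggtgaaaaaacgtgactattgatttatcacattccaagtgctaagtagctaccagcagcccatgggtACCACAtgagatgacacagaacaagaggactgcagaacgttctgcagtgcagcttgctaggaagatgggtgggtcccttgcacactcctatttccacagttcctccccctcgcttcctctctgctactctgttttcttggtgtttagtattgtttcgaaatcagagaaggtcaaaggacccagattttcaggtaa
Gimap3 promoter: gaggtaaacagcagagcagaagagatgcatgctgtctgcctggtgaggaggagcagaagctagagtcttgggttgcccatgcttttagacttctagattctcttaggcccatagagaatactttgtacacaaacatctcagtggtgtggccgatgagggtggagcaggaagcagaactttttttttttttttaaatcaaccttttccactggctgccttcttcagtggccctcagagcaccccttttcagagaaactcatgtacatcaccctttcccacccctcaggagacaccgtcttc
RefSeq gave 9 promoters for the 8 members. The RUNX motif TGTGGT, searched on both strands, occurred in 3 of the 9 (those of Gimap1, Gimap4 and Gimap7), against 16.8% of all 32851 promoters of this length. None of the 9 held the ETS motif CCGGAAGT (3.89% of all promoters), the E-box CAGCTG (16.3%), the TCF motif CTTTGAT (3.73%), the GATA motif AGATAA (11.2%) or the KLF motif CCACACCC (3.56%). These are matches of letters in 1 window and say nothing of which factors bind there.

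The authors deposited RPKM on the log2 scale, which sets reads against gene length and library size, and whole reads were recovered from these values. Totals were 7861652 to 13177281 reads per library. The RNA was amplified by PCR with no molecular tags, so read numbers cover counting error only. Where a gene had 0 reads, up to 3 reads are allowed by counting error, and its log2 value is set by the small offset that the authors' normalization added. Core cDC markers averaged 6.52 to 7.50 log2 RPKM in the pre-cDC2 libraries and 8.44 to 8.73 in the pre-cDC1 libraries. In 3 of the 4 pre-cDC2 libraries the 24 T cell markers averaged more than the 10 cDC2 markers, with 6.06 over 3.42 and 6.01 over 3.67 log2 RPKM in KO replicates 1 and 2, and with 6.47 over 3.37 for replicate 3 of WT. WT pre-cDC2 replicate 2 stood apart, with 2.47 for the T cell markers and 5.20 for the cDC2 markers. It differed over 2-fold from WT replicate 3 in 5205 of the tested genes, against 2632 to 3194 genes in other pairs of libraries of 1 group. Results that rest on it are given with and without it.

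Adam10 itself had 4.24 and 4.11 log2 RPKM in KO pre-cDC2, against 1.76 and 4.53 in WT pre-cDC2. It had -2.45, -3.90 and -1.50 log2 RPKM (9, 3 and 13 reads) in KO pre-cDC1, against -0.64, 0.13 and -2.29 (28, 48 and 10 reads) in WT pre-cDC1. KO and WT overlapped in both cell types. These values cover the whole gene, so the deleted part was not seen apart from the rest, and they do not check the genotype labels.

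All 8 members were higher in each of the 4 pre-cDC2 libraries than in any of the 6 pre-cDC1 libraries, an order that 11.1% of the 14787 tested genes also had. Only 3 members (Gimap3, Gimap4 and Gimap6) passed the filter on low values by their pre-cDC1 libraries alone. The others entered the tested genes through pre-cDC2, so for them the filter favoured this order, as did the choice of the members. Taken by genotype, 28.6% of tested genes were higher in all pre-cDC2 than in all pre-cDC1 libraries of KO, and 20.2% in those of WT. In these bulk libraries, more cells of a type and more RNA per cell cannot be told apart. The summed level of the family was 1241 and 1120 RPKM in KO pre-cDC2 (31508 and 25049 reads), against 3.93, 4.01 and 6.03 RPKM in KO pre-cDC1 (111, 121 and 131 reads). It was 123 and 1401 RPKM in WT pre-cDC2 replicates 2 and 3 (4497 and 40364 reads), against 15.6, 17.2 and 11.8 RPKM in WT pre-cDC1 (380, 407 and 303 reads). The family was thus read in every library, but the pre-cDC1 values rest on 111 to 407 reads for all members together.

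Gimap9, a less studied member, had 5.75 and 5.53 log2 RPKM in KO pre-cDC2 and 2.92 and 6.32 in WT pre-cDC2 replicates 2 and 3. It had -1.03, -1.93 and 0.19 in KO pre-cDC1 (8, 4 and 14 reads) and -1.50, -2.73 and -1.20 in WT pre-cDC1 (5, 2 and 7 reads). The pre-cDC2 libraries were all high and the pre-cDC1 libraries all near or below 1 RPKM, which is 0 on the log2 scale, in both genotypes. The mean difference between pre-cDC2 and pre-cDC1 was 6.56 (log2) in KO and 6.43 in WT, and in WT it was 8.12 without pre-cDC2 replicate 2 and 4.73 without pre-cDC2 replicate 3.

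Gimap3, whose mouse protein is known to influence the segregation of mitochondrial DNA, had 8.69 and 8.52 log2 RPKM in KO pre-cDC2 and 4.59 and 8.80 in WT pre-cDC2. It had -1.0, -6.71 and -0.68 in KO pre-cDC1 (13, 0 and 12 reads) and 1.88, 2.98 and 1.05 in WT pre-cDC1 (85, 182 and 54 reads). KO pre-cDC1 libraries were all below WT pre-cDC1 libraries. Between pre-cDC2 and pre-cDC1 the mean difference was 11.40 in KO, where it depends on the offset at 0 reads, and 4.72 in WT (6.83 without replicate 2, 2.62 without replicate 3).

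Gimap5, a lysosomal membrane protein whose loss depletes T cells in rats and mice, had 4.47 and 4.45 log2 RPKM in KO pre-cDC2 and 2.25 and 5.13 in WT pre-cDC2. Its levels were -1.80, -4.18 and -1.77 in KO pre-cDC1 (12, 2 and 9 reads) and -0.68, -3.14 and -2.76 in WT pre-cDC1 (23, 4 and 6 reads). KO and WT overlapped in both cell types. The mean difference between the cell types was 7.05 in KO and 5.88 in WT (7.32 without replicate 2, 4.44 without replicate 3).

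Gimap4, which is known to promote the death of T cells, had 8.53 and 8.47 log2 RPKM in KO pre-cDC2 and 5.27 and 8.65 in WT pre-cDC2. Its levels were -0.13, -1.78 and -1.42 in KO pre-cDC1 (17, 5 and 5 reads) and 2.21, 1.82 and 2.29 in WT pre-cDC1 (76, 58 and 91 reads). All KO pre-cDC1 libraries lay below all WT pre-cDC1 libraries, as for Gimap3. The mean difference between the cell types was 9.61 in KO and 4.85 in WT (6.54 without replicate 2, 3.16 without replicate 3).

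Gimap6, a partner of the autophagy protein GABARAPL2, had 7.96 and 7.76 log2 RPKM in KO pre-cDC2 and 5.09 and 8.17 in WT pre-cDC2. With 0.51, 1.39 and 1.58 in KO pre-cDC1 (51, 90 and 79 reads) and 2.51, 1.84 and 1.49 in WT pre-cDC1 (179, 112 and 100 reads), it was the only member above 1 RPKM in all 6 pre-cDC1 libraries. KO and WT overlapped. Its mean difference between the cell types was 6.70 in KO and 4.68 in WT (6.22 without replicate 2, 3.14 without replicate 3).

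Gimap1, which is needed for the survival of mature T and B cells in mice, had 5.21 and 5.02 log2 RPKM in KO pre-cDC2 and 2.63 and 5.57 in WT pre-cDC2. Its reads were 0, 10 and 1 in KO pre-cDC1, against 0, 32 and 27 in WT pre-cDC1, so it was near the limit of detection in several libraries. The antisense transcript Gimap1os shares 1107 exon bases with it, which is 36% of the exon length of Gimap1. Whether strand was used in counting is not given in the sources used here, so reads of the overlap cannot be told apart. Gimap1os had 217 and 182 reads in KO pre-cDC2 and 15 and 339 in WT pre-cDC2, and it had no reads in KO pre-cDC1, against 2, 0 and 5 reads in WT pre-cDC1.

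Gimap7, whose human counterpart is active as a GTPase dimer, had 5.33 and 5.24 log2 RPKM in KO pre-cDC2 and 1.56 and 5.71 in WT pre-cDC2. In pre-cDC1 it had 2, 8 and 7 reads in KO and 12, 14 and 3 reads in WT. Gimap8, the largest member, had 5.78 and 5.45 log2 RPKM in KO pre-cDC2 and 2.29 and 5.67 in WT pre-cDC2. In pre-cDC1 it had 8, 2 and 4 reads in KO and 0, 3 and 15 reads in WT. Neither gene separated KO from WT in either cell type. The mean difference between the cell types was 7.34 in KO and 5.03 in WT for Gimap7 (7.11 without replicate 2, 2.96 without replicate 3). For Gimap8 it was 8.60 in KO and 7.94 in WT (9.63 without replicate 2, 6.25 without replicate 3), and for Gimap1 it was 9.39 in KO and 6.41 in WT (7.88 without replicate 2, 4.94 without replicate 3). The sizes for Gimap1 and the WT size for Gimap8 depend on the offset at 0 reads. The KO size for Gimap8 rests on 8, 2 and 4 reads in pre-cDC1. With log2(RPKM + 1), a scale that lowered the difference of every member, the sizes for Gimap8 were 5.45 in KO and 3.91 in WT. Those for Gimap1 were 4.99 in KO and 3.54 in WT, and without WT pre-cDC1 replicate 1 that in WT was 4.08.

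**Figure D1:**
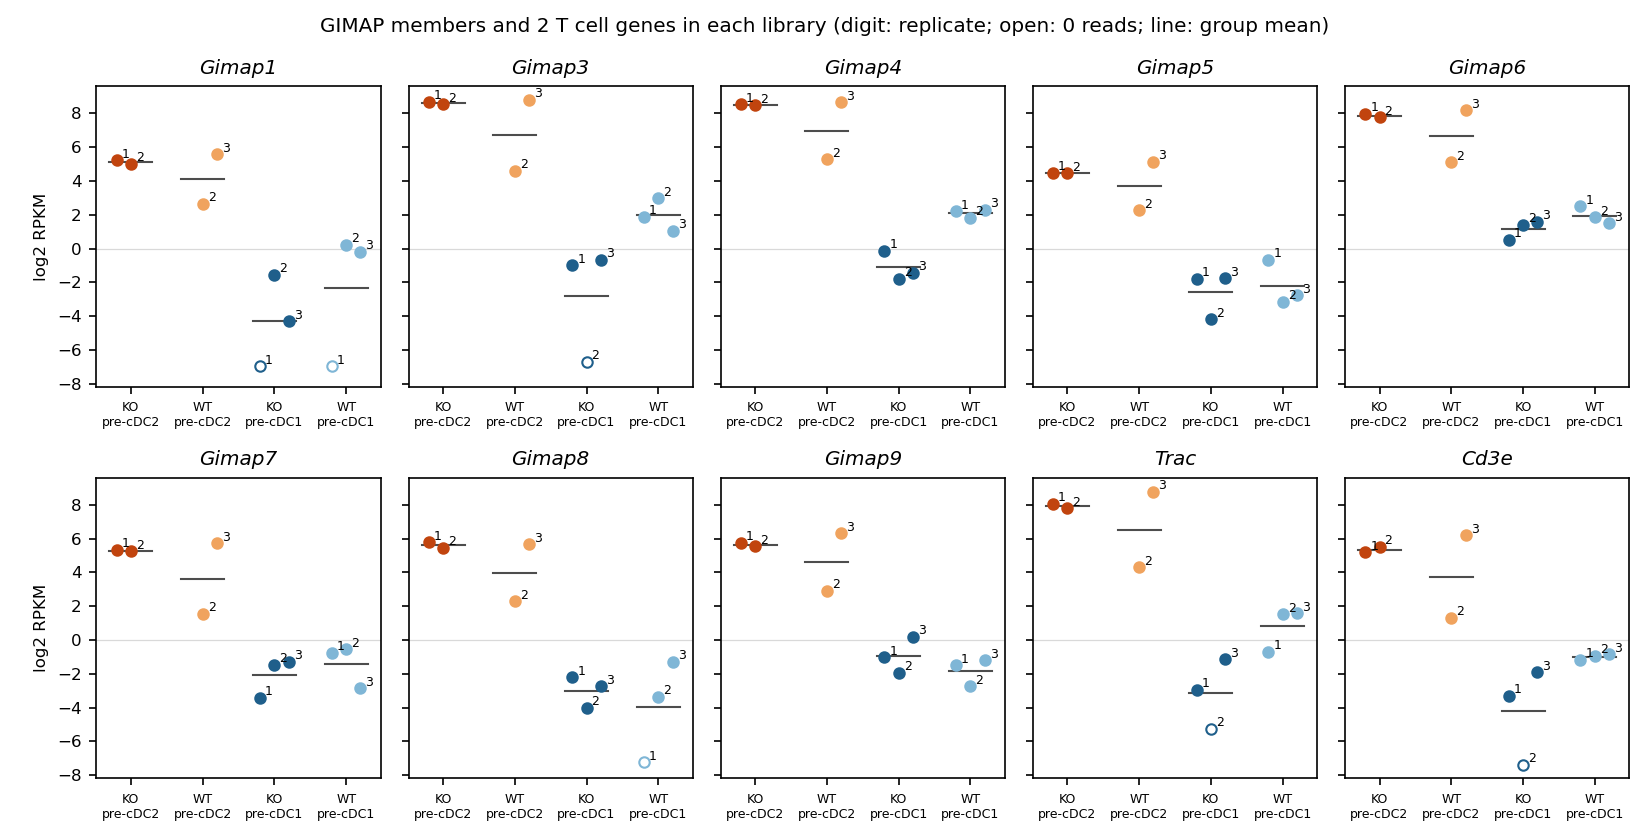
Level of each GIMAP member, Trac and Cd3e in each library, as log2 RPKM (vertical axis) by group (horizontal axis). Points are libraries with their replicate numbers, open points have 0 reads and lines are group means, and for each gene WT pre-cDC2 replicate 2 sits between WT replicate 3 and the pre-cDC1 libraries.

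WT pre-cDC2 replicate 2 was the lowest pre-cDC2 library for each of the 8 members. Relative to WT replicate 3, its members were lower by amounts between -2.88 (Gimap5, 7.38-fold) and -4.21 (Gimap3, 18.5-fold) on the log2 scale, and Gimap9 differed by -3.40 (10.5-fold). The KO pre-cDC2 replicates differed from each other by 0.02 to 0.33 for the members. In the same pair of WT libraries the difference was -4.46 for Trac, the constant region gene of the T cell receptor alpha chain, and -4.85 for Cd3e, a signalling chain of that receptor. The mean of the 24 T cell markers differed by -4.01 and that of the 15 NK cell markers by -4.20. The cDC2 markers differed the other way, by 1.88, the core cDC markers by 0.97 and the plasmacytoid DC markers by 1.28. T cell markers, NK cell markers and GIMAP members thus moved together between these WT libraries, and the part of T or NK cell RNA in the members' levels was not tested.

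The order of the members by level was nearly the same in the pre-cDC2 libraries with high levels. In KO pre-cDC2, Gimap3 and Gimap4 were highest with means of 8.60 and 8.50 log2 RPKM. Their ranges overlapped, but Gimap3 was above Gimap4 in each library. Gimap6 followed with 7.86, and then Gimap9 with 5.64 and Gimap8 with 5.61, which overlapped each other. Gimap7 with 5.29, Gimap1 with 5.12 and Gimap5 with 4.46 were lowest, and no neighbours among these overlapped. In WT pre-cDC2 replicate 3 the order began with Gimap3 at 8.80, Gimap4 at 8.65 and Gimap6 at 8.17 and ended with Gimap5 at 5.13. In WT pre-cDC2 replicate 2 it began with Gimap4 at 5.27, Gimap6 at 5.09 and Gimap3 at 4.59 and ended with Gimap7 at 1.56. In pre-cDC1, Gimap6 led in KO with a mean of 1.16 and lay above the next member in every library. In WT pre-cDC1, Gimap4, Gimap3 and Gimap6 averaged 2.11, 1.97 and 1.95, and these overlapped.

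As shares of the family's summed RPKM, Gimap3, Gimap4 and Gimap6 together made up most of the family in each pre-cDC2 library. Gimap3 took 33.3% and 32.8% in KO pre-cDC2 and 19.6% and 31.8% in WT pre-cDC2. Gimap6 took 20.1% and 19.3% in KO pre-cDC2 and 27.7% and 20.6% in WT pre-cDC2, against 36.2%, 65.6% and 49.6% in KO pre-cDC1 libraries and 36.6%, 20.8% and 24% in WT pre-cDC1 libraries. Gimap9 took 4.34% and 4.13% in KO pre-cDC2 and 6.15% and 5.68% in WT pre-cDC2. Its share was 12.4%, 6.56% and 18.9% in KO pre-cDC1 (8, 4 and 14 reads), against 2.27%, 0.876% and 3.69% in WT pre-cDC1 (5, 2 and 7 reads). The make-up was close between the KO pre-cDC2 libraries and WT pre-cDC2 replicate 3 and varied most among the pre-cDC1 libraries, where few reads stand behind each share.

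**Figure D2:**
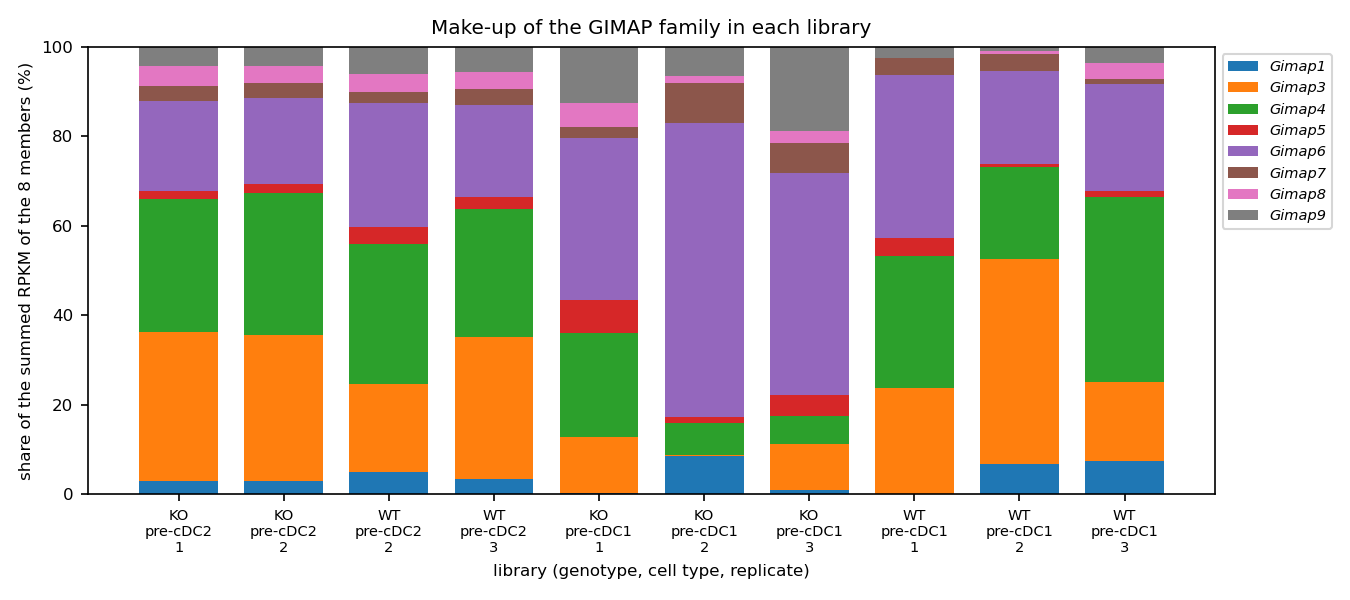
Share of each member (vertical axis, percent) in the summed RPKM of the 8 members, for each library (horizontal axis). Each bar is 1 library and adds to 100%, and Gimap3, Gimap4 and Gimap6 fill most of each pre-cDC2 bar, with Gimap9 at 4.13% to 6.15% there.

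Set against T cell RNA in the same library, the family lay a little above the T cell mean in all pre-cDC2 libraries. The mean log2 level of the 8 members minus that of the 24 T cell markers was 0.41 and 0.30 in KO pre-cDC2 and 0.86 and 0.28 in WT pre-cDC2. In pre-cDC1 it was 1.01, 0.93 and 1.21 in KO, against -0.25, -0.14 and -0.03 in WT. The pre-cDC1 values depend on genes without reads, since 21, 16 and 21 of the 24 T cell markers had a read in KO pre-cDC1, against 24, 24 and 23 in WT pre-cDC1. With log2(RPKM + 1) the pre-cDC1 values were -0.02, -0.08 and 0.11 in KO, against 0.22, -0.04 and -0.16 in WT, so the sign there depends on the offset. In pre-cDC2 they stayed above 0 with it, at 0.39 and 0.28 in KO and 0.67 and 0.26 in WT. Over the 4 pre-cDC2 libraries, the distance of a single member from the T cell mean ranged by 0.17 (Gimap7) to 1.37 (Gimap5).

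Gimap9 itself was -0.31 and -0.48 from the T cell mean in KO pre-cDC2 and 0.45 and -0.16 in WT pre-cDC2. In pre-cDC1 it was 1.98, 1.53 and 2.70 above that mean in KO, against -0.43, -2.50 and -0.80 in WT. Its distance from Trac alone was -2.31 and -2.27 in KO pre-cDC2, -1.38 and -2.44 in WT pre-cDC2, 1.91, 3.32 and 1.34 in KO pre-cDC1, and finally -0.81, -4.26 and -2.77 for WT pre-cDC1. Gimap9 was therefore higher than Trac in each KO pre-cDC1 library and lower in all others. Trac there had 1, 0 and 3 reads, so these pre-cDC1 distances rest on a handful of reads of either gene.

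Gimap4 stayed at 2.88, 1.68 and 1.09 above the T cell mean in KO pre-cDC1 and 3.28, 2.05 and 2.69 above it in WT pre-cDC1, against 2.47, 2.46, 2.80 and 2.18 in the 4 pre-cDC2 libraries. Gimap6 was 3.53, 4.85 and 4.09 above it in KO pre-cDC1 libraries and 3.58, 2.07 and 1.90 in WT pre-cDC1 libraries, against 1.91, 1.75, 2.62 and 1.70 in pre-cDC2. Each Gimap6 value in KO pre-cDC1 rests on 51 to 90 reads of Gimap6, but the T cell mean there includes markers without reads, whose offsets set part of the distance.

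**Figure D3:**
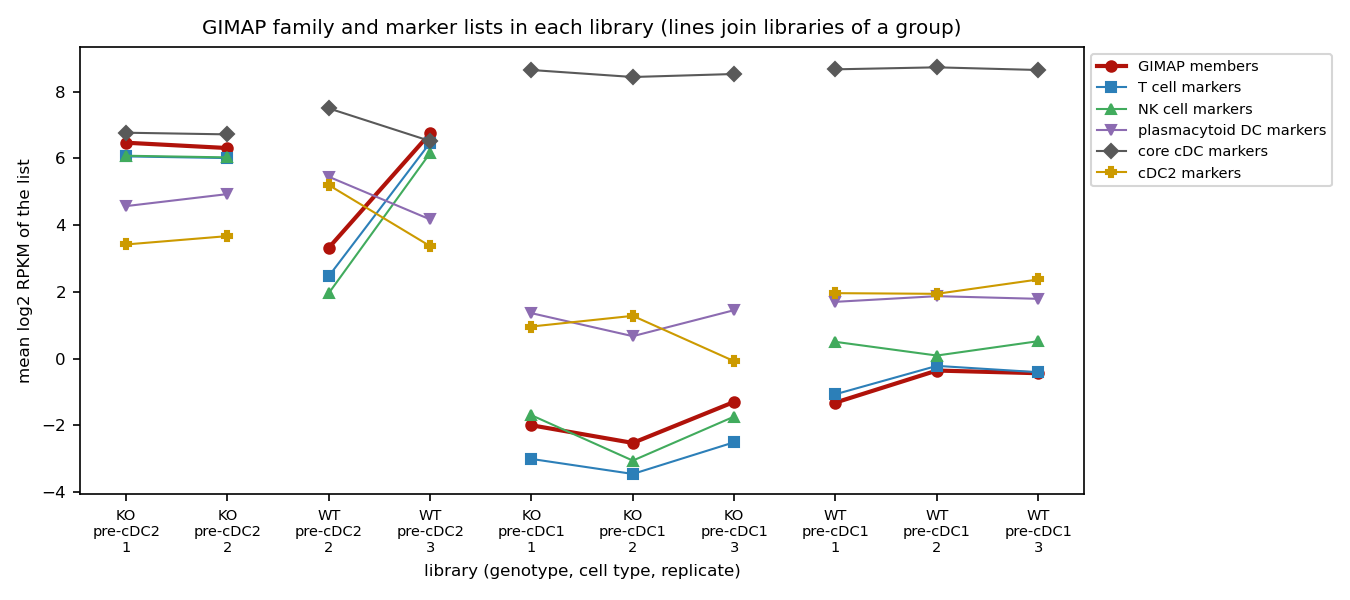
Mean log2 RPKM (vertical axis) of the 8 GIMAP members and of marker lists of other cell types in each library (horizontal axis); lines join the libraries of a group. The GIMAP line runs with the T cell and NK cell lines in pre-cDC2, at 3.32 and 6.75 in WT replicates 2 and 3. Between these WT libraries the core cDC and cDC2 lines run the other way.

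The genes closest to Gimap9 across the 10 libraries were found by the SD of their log2 ratio to it. Genes other than members were ranked only if their mean log2 RPKM was no lower than 1, and 9485 genes were considered. Members were ranked whatever their mean. Gimap5, Gimap7, Gimap8 and Gimap1 averaged below 1, so their ranks leave out other genes of that level. They were Traj9 (0.74), Traj27 (0.78), Traj28 (0.79), Trbj2-1 (0.80) and Traj18 (0.82), all joining segments of T cell receptor genes by their names. Each of these had 0 reads in all 6 pre-cDC1 libraries, so the measure there compares a constant with Gimap9. Among the members, Gimap5 was next with 0.86 (rank 8), then Gimap6 with 1.05 (rank 13) and Gimap7 with 1.34 (rank 28). Gimap8 had 1.79 (rank 69), Gimap4 had 1.85 (rank 76), Gimap3 had 2.87 (rank 486) and Gimap1 had 2.94 (rank 567). Trac had 2.40 (rank 184), so Gimap3 and Gimap1 were less like Gimap9 than Trac was. The measure takes in the rise in pre-cDC2 for which Gimap9 was chosen.

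The comparison of KO with WT asks whether loss of ADAM10 was accompanied by other GIMAP levels. It was not used to choose the members and was tested with limma over all tested genes, with Benjamini-Hochberg adjustment. No member passed the threshold of 0.05 in pre-cDC1, where 4 genes (0.0271%) did, nor in pre-cDC2, where 10 genes (0.0676%) did. At an unadjusted p below 0.05 there were 2 of the 8 members and 1335 of the 14787 tested genes in pre-cDC1. In pre-cDC2 there were 0 members and 987 genes. A fit of the recovered reads with voom also called 0 members in both. All 8 members passed the filter on low values, but 5 of them did so through pre-cDC2 alone, since only Gimap3, Gimap4 and Gimap6 exceeded 1 RPKM in at least 2 pre-cDC1 libraries.

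In pre-cDC1, 6 members had a lower and 2 a higher mean in KO, with a median difference of -0.73 (log2), against -0.00 over all tested genes. Gimap4 averaged -1.11 ± 0.87 log2 RPKM in KO and 2.11 ± 0.25 in WT (SD, n = 3 each), a difference of -3.22 (SE 0.74, limma adjusted p = 0.177). This SE takes in the spread of all groups, among them WT pre-cDC2 with an SD of 2.39. With only the pre-cDC1 libraries in the fit, the SE was 0.49 (limma adjusted p = 0.0986). Gimap3 averaged -2.80 ± 3.39 in KO and 1.97 ± 0.97 in WT (SD, n = 3 each), a difference of -4.77 (SE 1.56, limma adjusted p = 0.365). Its size rests on KO pre-cDC1 replicate 2, which had 0 reads: the difference was -2.81 without that library and -1.90 with log2(RPKM + 1), with adjusted p-values of 0.205 to 0.821 over the alternatives. For both, each KO library was below each WT library, as for 9.27% of tested genes. The Gimap4 difference passed the threshold with library weights (limma adjusted p = 0.0293), a fit in which 100 of the 14787 tested genes passed. With voom on recovered reads its limma adjusted p was 0.827. Leaving out WT pre-cDC2 replicate 2 or 3 kept the difference at -3.22, but left a lone library in that group. The difference was negative in all 20 alternatives.

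Genes of T and NK cells mostly had lower means in KO pre-cDC1 too, although none passed the test. Of the 24 T cell markers, 23 had a lower mean in KO pre-cDC1 and none passed the threshold, with a median of -2.57. Their summed level was 49.6 to 56.8 RPKM in KO, where Lef1 was at 0 in all libraries, against 73.2 to 81.2 RPKM in WT. Most of these sums was Cd8a, and without it they were 6.83 to 6.84 RPKM in KO and 19.6 to 35.7 RPKM in WT. Of the 15 NK cell markers all had a lower mean in KO and none passed, with a median of -2.36 and sums of 40.5 to 44.3 RPKM in KO against 58.3 to 69.1 RPKM in WT. Klrk1, the gene of the activating receptor NKG2D, made up most of the NK sums, and without it they were 5.25 to 7.08 RPKM in KO and 23.5 to 29.8 RPKM in WT. Trac had 1, 0 and 3 reads in KO pre-cDC1 and 5, 24 and 28 reads in WT pre-cDC1 (difference -3.92, SE 1.26, limma adjusted p = 0.35). Cd3e had 4, 0 and 8 reads in KO pre-cDC1 and 16, 19 and 23 reads in WT pre-cDC1 (difference -3.22, SE 1.47, limma adjusted p = 0.56). Trbc2, a constant region gene of the receptor's beta chain, differed by -3.91 (SE 0.91, limma adjusted p = 0.183), while Cd8a, which a subset of dendritic cells also expresses, differed by -0.02. Of 12 B cell markers 6 were tested, and all 6 had a lower mean in KO pre-cDC1 (median -2.12), as did 8 of 9 tested cDC2 markers (median -1.88), while all 9 cDC1 markers had a higher mean (median 0.38). None of these passed. The part of these cells' RNA in the Gimap3 and Gimap4 differences was not tested.

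The other members showed smaller differences in pre-cDC1. Gimap6, the member with the most reads there in KO, differed by -0.79 (SE 0.67, limma adjusted p = 0.814). Gimap9 ran the other way, by 0.89 (SE 0.86, limma adjusted p = 0.852), with 26 reads over the KO libraries and 14 over the WT libraries. Gimap8 differed by 0.98 (SE 1.43) and Gimap1 by -1.96 (SE 1.97). Gimap5 differed by -0.39 (SE 0.99) and Gimap7 by -0.66 (SE 1.08). The direction of 3 of these changed when 1 library was left out. Without KO pre-cDC1 replicate 2 or WT pre-cDC1 replicate 1 Gimap5 was at 0.40 or 0.36, without KO pre-cDC1 replicate 1 Gimap7 was at 0.01, and without WT pre-cDC1 replicate 1 Gimap8 was at -0.66.

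In pre-cDC2, each of the 8 members had a higher mean in KO, with a median difference of 1.39 (log2) against 0.00 over all tested genes. Each overlapped between KO and WT, as most tested genes did. Only 15.6% of tested genes were higher and 14.6% lower in KO without overlap. The differences ran from 0.78 for Gimap5 (SE 1.21, limma adjusted p = 0.927) to 1.91 for Gimap3 (SE 1.91, limma adjusted p = 0.873). Gimap9 averaged 5.64 ± 0.15 log2 RPKM in KO and 4.62 ± 2.40 in WT (SD, n = 2 each), a difference of 1.03 (SE 1.06, limma adjusted p = 0.877). These values rest on the WT library that stood apart. Against WT replicate 3 alone, the KO mean was lower for each of the 8 members, by amounts between -0.05 (Gimap8) and -0.67 (Gimap5 and Gimap9). Without WT replicate 3, the difference was 3.23 for Gimap4 and 2.77 for Gimap6. Which WT library is kept thus decides the direction for the family. A fit with a lone WT library takes its spread from the other groups, so its calls are not read as results.

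T cell and NK cell markers had the same pattern in pre-cDC2. Of 24 T cell markers 23 had a higher mean in KO, with a median of 1.55, and all 15 NK cell markers did, with a median of 2.05, and no marker passed. The sum of the T cell markers was 2565 to 2751 RPKM in KO and 219 to 3794 RPKM in WT, and that of the NK cell markers was 1630 to 1806 RPKM in KO and 111 to 1964 RPKM in WT. No marker of either list was at 0 in all libraries of a pre-cDC2 group. Trac differed by 1.40 (SE 1.55), and the difference was -0.83 against WT replicate 3 alone. Nkg7 and Il2rb, genes of cytotoxic granules and of the IL-2 receptor, averaged 8.98 and 8.90 log2 RPKM in KO and 6.88 and 6.84 in WT. Whether the members' differences go beyond those of T or NK cell RNA was not tested.

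**Figure D4:**
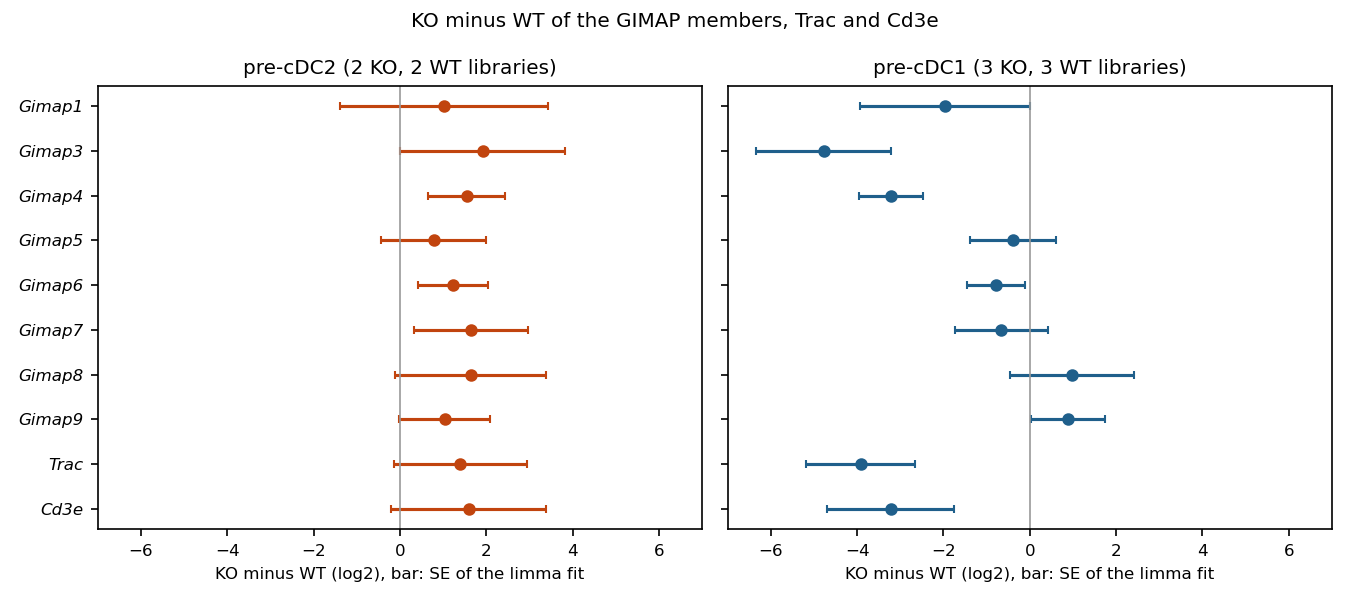
KO minus WT on the log2 scale (horizontal axis) for each member, Trac and Cd3e (vertical axis), in pre-cDC2 (left) and pre-cDC1 (right). Points are limma estimates and bars their SE, and the estimates lie at 0.78 to 1.91 for the members in pre-cDC2 and from -4.77 (Gimap3) to 0.98 (Gimap8) in pre-cDC1, none past the threshold.

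The difference between the cell types in KO minus WT was positive for each of the 8 members, with a median of 2.16 against 0.03 over all tested genes. No member passed the limma test of this interaction, in which 3 genes (0.0203%) passed. An unadjusted p below 0.05 was seen for 2 of the 8 members and 713 of the 14787 tested genes. The voom fit called 0 members as well. The largest were 6.68 for Gimap3 (SE 2.47, limma adjusted p = 0.952) and 4.76 for Gimap4 (SE 1.17, limma adjusted p = 0.748). Gimap9 had the smallest, 0.14 (SE 1.37, limma adjusted p = 0.999), and its sign changed to -1.56 without WT pre-cDC2 replicate 2. When replicate 3 of that group was left out instead, Gimap4 was at 6.45 and Gimap6 at 3.56, with a lone WT pre-cDC2 library in the fit.

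Genes that act with GIMAP proteins were described from a list of 13, the ATG8 family that GIMAP6 binds to, BCL2 family members and the GSK3 kinases. All 13 were tested and none passed in either cell type. In pre-cDC1, 3 had a higher and 10 a lower mean in KO, with a median of -0.17, and in pre-cDC2 4 had a higher and 9 a lower mean, with a median of -0.21. Gabarap, an ATG8 protein of autophagosomes, averaged 5.82 log2 RPKM in KO pre-cDC2 and 6.23 in WT pre-cDC2, while its means in pre-cDC1 were 6.49 for KO and 6.53 for WT. Mcl1, which protects cells from apoptosis, differed by -0.16 (SE 0.26) between KO and WT in pre-cDC2 and by 0.01 (SE 0.22) in pre-cDC1. Bax, which promotes apoptosis, differed by 0.05 (SE 0.23) in pre-cDC2 and by -0.17 (SE 0.18) in pre-cDC1. The list means were 3.92 to 4.02 log2 RPKM in KO pre-cDC2, 3.90 to 4.19 in WT pre-cDC2, 3.24 to 3.29 in KO pre-cDC1 and 3.37 to 3.50 in WT pre-cDC1.

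The cell type difference of the members was also set beside their neighbours on chromosome 6. Of 39 other genes within 250 kb of the cluster, 14 were tested. Inside the cluster were Gimap1os and the readthrough gene Gm28053, which shares 81 exon bases with Gimap7, 198 with Gimap1 and 153 with Gimap5 and had 27 reads in each KO pre-cDC2 library, 0 and 18 in WT pre-cDC2, 0, 0 and 1 in KO pre-cDC1 and none in WT pre-cDC1. Gm44226 and 4833403J16Rik, also inside, had 0 reads in all 6 pre-cDC1 libraries. In pre-cDC2, Gm44226 had 1.10 and 1.02 log2 RPKM in KO and -0.30 and 0.87 in WT, and 4833403J16Rik had 1.67 and -0.13 in KO and -1.71 and 1.02 in WT. All 4 genes inside the cluster exceeded 0 log2 RPKM only in pre-cDC2 libraries. They passed the filter on low values through those libraries alone, so their lean to pre-cDC2 was set by the filter. It says nothing about the members. Outside the cluster, no tested neighbour was higher in pre-cDC2 by as much as the members, which were chosen through this difference. Krba1 differed by 3.87 in KO and 3.56 in WT, but it too exceeded 0 log2 RPKM only in pre-cDC2 libraries. Its lean to pre-cDC2 was thus set by the filter as well. Sspo differed by -2.70 in KO and -5.59 in WT, and Lrrc61 by -0.47 and 0.02. Repin1 differed by -0.38 and -0.14, and Zfp775 by 0.29 and 1.13. Tmem176a and Tmem176b, paired membrane protein genes that cDC2 and monocytes express, were higher in pre-cDC2 by 2.63 and 2.29 in KO and by 1.17 and 0.96 in WT. Unlike the members, these genes were highest in WT pre-cDC2 replicate 2, where Tmem176b had 7.47 log2 RPKM, while the KO pre-cDC2 libraries had 5.71 and 6.04 and the other WT library had 5.58. Between KO and WT, Tmem176a differed by -0.68 (SE 0.44, limma adjusted p = 0.826) in pre-cDC2 and by -2.14 (SE 0.36, limma adjusted p = 0.0745) in pre-cDC1, and none of the 14 neighbours passed in either cell type.

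**Figure D5:**
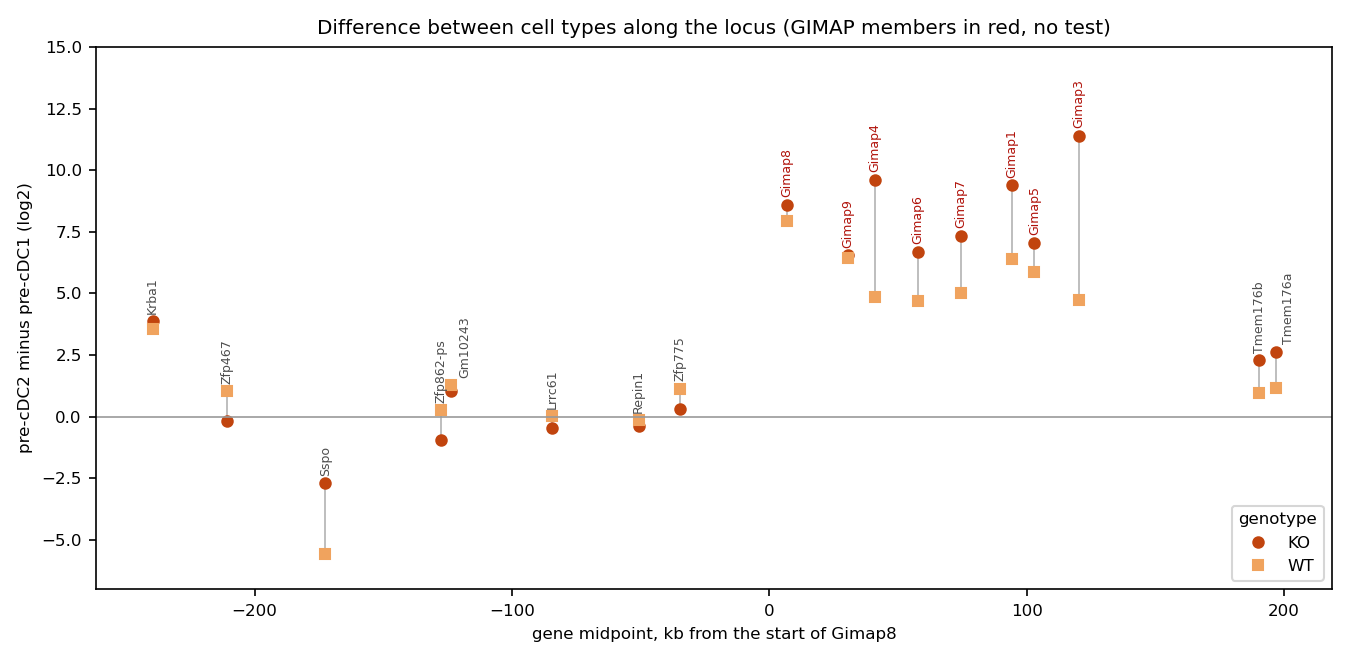
Pre-cDC2 minus pre-cDC1 on the log2 scale (vertical axis) of the GIMAP members (red names) and of tested neighbours by the distance of the gene's midpoint from the start of Gimap8 (horizontal axis, kb); circles are KO and squares WT. Neighbours with 0 reads in every library of a pre-cDC1 group are left out. The members lie between 4.68 and 11.40, above each neighbour that is shown, all of which lie outside the cluster. The tested neighbours inside it passed the filter through pre-cDC2 alone and are not shown. Krba1, which is shown, also passed through pre-cDC2 alone.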

How the data were processed

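Libraries were made by the SMARTSeq v2 protocol with ERCC spike-ins and read in paired ends, per the labels' protocols, and no spike-in is in the table. Per the submitters' processing notes, the authors aligned reads to GRCm38 with STAR 2.3, counted them with featureCounts 1.5.0 and used edgeR in R 3.3.3. The annotation release is not given in the sources used here. For the strand setting the same holds. The deposited values are log2 RPKM per gene and library. From them, whole reads were recovered within 0.001 for all 490350 values of the 49035 identifiers found in GENCODE mouse release 21. No column of other samples was in the table (0 columns).

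Members and lists were chosen with earlier results of these data known. Groups follow the sample titles and labels. limma 3.58.1 in R 4.3.3 (eBayes with trend, 4 group means over 10 libraries, 6 residual degrees of freedom) was fitted to the 14787 genes that exceeded a log2 RPKM of 0 in 2 or more libraries, with no added pseudocount. Tests were two-sided and Benjamini-Hochberg adjusted over these genes, with 0.05 as threshold. Promoters came from RefSeq and coding sequences from GENCODE. Named were the 8 members, Trac, Cd3e, Adam10, the 5 genes most like Gimap9 and up to 3 members of each list described with the highest mean. Neighbours named beside the cluster otherwise (Gm28053, Gimap1os, Gm44226, 4833403J16Rik, Krba1, Sspo, Repin1 and Zfp775) were chosen after their values were seen. Alternatives covered the filter, log2(RPKM + 1), scaling, the variance model, the libraries in the fit, library weights, voom on recovered reads and a replicate block. The scripts were tested on simulated data.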

Additional observations from a re-analysis of the deposited data

How the results depend on the processing

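No alternative reversed a difference between pre-cDC2 and pre-cDC1. Leaving 1 library out of 2 or 3 always moves the group mean by under its SD, so it cannot show stability. Moves beyond the larger SD of the compared groups came only with log2(RPKM + 1), 6 in KO and 2 in WT. That scale lowered every member's difference, to between 4.26 (Gimap5) and 8.18 (Gimap3) in KO, against 6.56 to 11.40 as reported. In WT the lowered values lay between 3.33 (Gimap7) and 4.57 (Gimap4), against 4.68 to 7.94. The count of called members was 0 to 1 in pre-cDC1, 0 to 2 in pre-cDC2 and 0 to 2 for the interaction when 1 library was left out, and it was 1 in pre-cDC1 with library weights. Left out in turn, libraries took the count over all genes to 0 to 114 in pre-cDC1 (4 in the reported fit), 5 to 1048 in pre-cDC2 (10) and 0 to 495 for the interaction (3), with the highest values without WT pre-cDC2 replicate 3.

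In pre-cDC1 the count over all genes was 11 with no filter, 18 with the stricter filter (log2 RPKM above 1 in at least 3 libraries), 2 with log2(RPKM + 1), 12 scaled to total reads, 18 without trend, 53 with only the compared groups, 100 with library weights and 0 with voom (1184 genes at an unadjusted p below 0.05). In pre-cDC2 it was 25 with no filter, 5 with log2(RPKM + 1), 42 without trend, 0 with only the compared groups (651 at an unadjusted p below 0.05), 1 with library weights and 4 with voom. For the interaction it was 1 with the stricter filter, 36 without trend, 0 with library weights (530 at an unadjusted p below 0.05) and 1 with voom. The causes were not tested.

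With a replicate block the counts over all genes were 0 in pre-cDC1 (1242 at an unadjusted p below 0.05), 2 in pre-cDC2 and 0 for the interaction (710), no member was called, and Gimap4 in pre-cDC1 had an adjusted p of 0.219. Libraries of the same number had correlations of -0.03 to 0.03 between KO and WT of a cell type and -0.02 to 0.03 between cell types of a genotype. No pairing by number was seen, but deviations within groups of 2 or 3 libraries cannot exclude it.

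KO minus WT in pre-cDC1 changed sign for Gimap8 with log2(RPKM + 1) (-0.02). When 1 library was left out, it ranged from -0.87 to 0.40 for Gimap5, -1.40 to 0.01 for Gimap7 and -0.66 to 2.31 for Gimap8. In pre-cDC2, also with 1 library left out, the lowest values came without WT replicate 2 and the highest without WT replicate 3, from -0.45 to 2.49 for Gimap1, -0.19 to 4.02 for Gimap3, -0.15 to 3.23 for Gimap4, -0.67 to 2.22 for Gimap5, -0.31 to 2.77 for Gimap6, -0.43 to 3.72 for Gimap7, -0.05 to 3.33 for Gimap8 and -0.67 to 2.72 for Gimap9. The interaction ranged from -0.27 to 2.61 for Gimap5, -1.03 to 2.35 for Gimap8 and -1.56 to 1.84 for Gimap9. Depth limits the pre-cDC1 values, since 5 members had fewer than 40 reads in each pre-cDC1 library.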
